A study of Mus musculus with 6 samples.

Results

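A set of antioxidant enzyme genes is described here in mouse brains with and without Angptl2, which encodes the secreted angiopoietin-like protein 2. The 10 genes were given by name (Sod1, Sod2, Cat, Gpx1, Gpx4, Prdx1, Prdx2, Prdx5, Txn1 and Gsr), and 1 row of the expression table was taken for each by matching its Ensembl gene ID to GENCODE M21, so that 10 of 54532 rows are members. RNA of brain tissue at postnatal day 15 was sequenced in 3 Angptl2+/+ libraries, the controls, and 3 Angptl2-/- libraries. The mice were in the C57BL/6 background, with no treatment named. By the study's account the Angptl2-/- line lacks exon 2 of Angptl2 and was bred from males in which a Stra8-cre transgene removed the floxed exon in the germ line. Dissection, sex and whether each library came from its own mouse are not stated in the sources used here, so p-values measure the spread between these libraries. The study picked Sod1 on these same samples as 1 of its candidate genes, which it reported as decreased in Angptl2-/-. It then reported lower Sod1 mRNA by quantitative RT-PCR. The Sod1 values below are therefore not independent evidence of a direction.

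Cells of the brain consume much oxygen, and part of it is released as superoxide. Superoxide dismutases turn superoxide into hydrogen peroxide, which catalase, glutathione peroxidases and peroxiredoxins then remove. Glutathione peroxidases draw their electrons from glutathione and most peroxiredoxins from thioredoxin, and both carriers are recharged at the expense of NADPH. Several of these genes are induced by the transcription factor Nrf2, and oligodendrocytes, which make myelin, hold much iron and little glutathione.

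Values are FPKM, fragments per kilobase of all exons of a gene scaled by library depth, and they are always listed for replicate 1, then 2, then 3. The libraries held 17127261 to 18928919 fragments assigned to genes, recovered from the FPKM values. Angptl2 itself (ENSMUSG00000004105, chr2:33216069-33247717, plus strand, GRCm38) stood at 0.660, 0.958 and 0.290 FPKM in Angptl2+/+ and at 0.166, 0.32 and 0.126 FPKM in Angptl2-/-. The genotypes overlapped, with a log2 difference of −1.21 (SE 0.50, two-sided exact permutation test, p = 0.2, where 0.1 is the smallest p that 3 against 3 allow), and fragments of the exons left after the deletion still count. Markers of other cells and regions differed between the libraries. Summed red blood cell markers reached 302 to 498 FPKM in Angptl2+/+ and 125 to 274 FPKM in Angptl2-/-, with 5 of 5 tested markers lower at an unadjusted p under 0.05 and none at 0 (the top one, Hbb-bs, 300.3, 268 and 165 against 145, 165 and 73.4 FPKM). Choroid plexus markers ran from 1.67 to 7.72 FPKM against 104 to 934 FPKM, the latter mostly Ttr (141, 916 and 99.6 FPKM in Angptl2-/-). Endothelial markers ran from 59.9 to 68.6 against 45.5 to 55.8 FPKM (Cldn5 the highest), and striatal markers from 34.5 to 89.7 against 75.9 to 165 FPKM (Ppp1r1b the highest). Myelin markers summed to 979 to 1995 FPKM in Angptl2+/+ and 614 to 1173 FPKM in Angptl2-/-, with 8 of 8 log2 differences negative. Angptl2+/+ replicate 1 stood apart, with the highest myelin sum and with cerebellar markers at 104 FPKM against 38.9 to 47.8 FPKM in the other 5 libraries, where Gabra6 or Pcp2 could be at 0 (Calb1 was the highest of that list). Neuronal (849.7 to 1066 against 891 to 1002 FPKM, led by Tubb3), astrocytic (376 to 484 against 392 to 462 FPKM, led by Slc1a2) and microglial (93.3 to 105 against 85.1 to 100.2 FPKM) sums overlapped. Xist was at 27.4, 27.9 and 42.2 FPKM in Angptl2+/+ replicates 1 and 2 and Angptl2-/- replicate 2 and at most 0.0697 FPKM elsewhere, while the Y-linked Ddx3y was at 9.26 to 14.7 FPKM in the other 3 libraries and at 0 in these. By these values Angptl2+/+ replicates 1 and 2 and Angptl2-/- replicate 2 read as female and the others as male. Sex was therefore uneven between the genotypes. The part of cell makeup, region and sex in the values below was not tested.

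None of the 10 genes passed the test between genotypes. The 2 genes furthest below the controls with no overlap were Prdx5, at 44.5 ± 2.19 FPKM in Angptl2-/- against 60.2 ± 6.05 FPKM in Angptl2+/+ (SD, n = 3 each), and Gpx4, at 89.3 ± 5.08 against 108 ± 4.85 FPKM. Prdx1 lay above the controls, at 42.1 ± 6.56 against 33.6 ± 1.93 FPKM. Sod1 had a mean of 19.7 ± 3.74 FPKM against 25.8 ± 4.63 FPKM, with overlapping libraries, and the other 6 genes overlapped too. In bulk tissue, fewer cells of a type and less RNA per cell cannot be told apart.

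The difference was tested with limma on log2(FPKM + 0.1) over the 14862 genes with a mean of at least 0.5 FPKM, with Benjamini-Hochberg adjustment across the whole table, and 10 of 10 members were tested. By this test 0 of 10 members were higher and 0 of 10 lower at an adjusted p under 0.05, as were 0.0% of all tested genes in each direction (smallest adjusted p = 0.273). voom, limma's model for fragment counts, called 0.0% of genes in either direction as well, and at its unadjusted p 1 member was higher and 2 were lower against 7.74% and 8.27% of genes. At an unadjusted p under 0.05, 1 member was higher (Prdx1) and 2 were lower (Prdx5 and Gpx4), where 7.09% of all genes were higher and 9.12% lower (1054 and 1355 genes). The libraries of the genotypes did not overlap for 1 member higher and 2 lower, against 10.7% and 11.8% of all genes. With 10 members these counts lie near the background. After rescaling without mitochondrial and haemoglobin genes the split of unadjusted calls over all genes turned to 1728 higher and 857 lower.

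The signs of the members were mixed. Their log2 differences (Angptl2-/- minus Angptl2+/+ throughout) were negative for 6 and positive for 4, and 6 genes (Sod2, Cat, Gpx1, Gpx4, Prdx2 and Txn1) changed sign under at least 1 of 18 alternatives. The median was −0.012, beside −0.004 for all tested genes, and ran from −0.089 (without Angptl2+/+ replicate 3) to 0.022 when 1 library was left out. The median size regardless of sign was 0.114 for the members, 0.215 for all tested genes and 0.196 for the tested genes within the members' FPKM range. Summed over the 10 genes, the levels were 448, 439 and 407 FPKM in Angptl2+/+ and 403, 384 and 407 FPKM in Angptl2-/-, and the lowest control equalled the highest Angptl2-/- library to 3 digits.

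**Figure D1:**
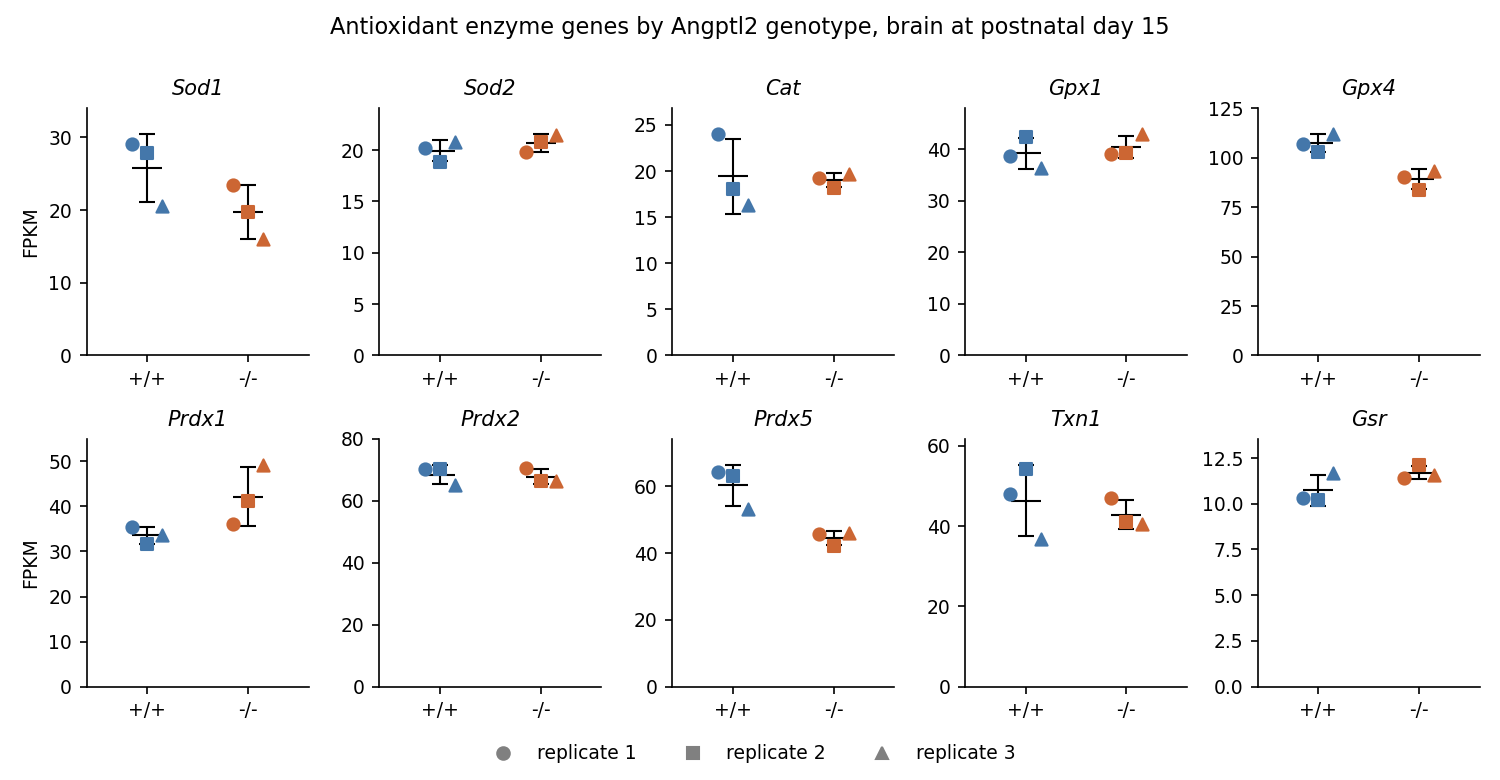
FPKM of the 10 genes (vertical axes from 0) in each library of Angptl2+/+ (blue) and Angptl2-/- (orange), with the group mean and SD in black (n = 3). The genotypes are apart for Gpx4 (83.7 to 93.6 against 103 to 112), Prdx5 (42.0 to 45.9 against 53.3 to 64.2) and Prdx1 (36.1 to 49.1 against 31.7 to 35.5), and overlap for the other 7 genes.

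Among the superoxide dismutases, Sod1 varied most and Sod2 hardly at all. Sod1 (ENSMUSG00000022982, chr16:90220754-90226329, plus strand) encodes the copper-zinc enzyme of the cytosol. Its principal transcript, Sod1-201, has 641 bases in 5 exons, with the coding sequence at bases 105 to 566. The stretch that the study amplified by RT-PCR runs from exon 2 into exon 3, within the coding sequence. It covers chr16:90222790-90224407 (GRCm38, plus strand, with the intron between the exons removed) and is shown because it is the piece of the Sod1 message assayed on brain RNA of both genotypes. Capitals mark the forward primer at its 5′ end and the site of the reverse primer at its 3′ end.
Sod1 amplicon: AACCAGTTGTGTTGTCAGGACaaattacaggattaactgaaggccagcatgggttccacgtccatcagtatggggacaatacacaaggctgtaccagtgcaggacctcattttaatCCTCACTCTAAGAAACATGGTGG
Both primer sites lie in 2 of 2 annotated Sod1 transcripts. The distance of 139 bases was read in Sod1-201 only, so whether the other transcript gives the same product was not tested.

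Sod1 was at 29.1, 27.8 and 20.5 FPKM in the Angptl2+/+ libraries and at 23.4, 19.7 and 16.0 FPKM in the Angptl2-/- libraries. The third control lay below the first Angptl2-/- library, so the groups overlapped. The log2 difference was −0.39 (SE 0.19, 95% interval −0.83 to 0.05, adjusted p = 0.343 from limma). The sign held under all 18 alternatives, from −0.55 without Angptl2+/+ replicate 3 to −0.25 without Angptl2-/- replicate 3, and the adjusted p ran from 0.213 to 0.768. Without Angptl2+/+ replicate 1 the difference was −0.30. The spread over the 6 libraries, a coefficient of variation of 22.2%, was the widest of the 10 genes and far above the counting error of 3.1% in the shallowest library for this gene (1039 fragments). Beside these values, summed red blood cell markers were at 498, 478 and 302 FPKM in Angptl2+/+ and 251, 274 and 125 FPKM in Angptl2-/-, and endothelial markers at 67.8, 68.6 and 59.9 FPKM against 55.8, 51.1 and 45.5 FPKM. Both sums were highest in Angptl2+/+ replicates 1 and 2 and lowest in Angptl2-/- replicate 3, as Sod1 was, whereas Angptl2-/- replicate 1 was above Angptl2+/+ replicate 3 in Sod1 but below it in both sums. None of the other marker sums had the same highest and lowest libraries. The endothelial list held 3 positive and 3 negative log2 differences, and only Cldn5, its most abundant gene, had an unadjusted p under 0.05 (limma). The endothelial sum therefore does not stand for the list as a whole. The part of either cell type in the Sod1 values was not tested. Gm8566, a processed pseudogene on chromosome 6 with 97.849% identity to Sod1 over 465 bases, took fragments amounting to 1.87% of those of Sod1.

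Sod2 (ENSMUSG00000006818, chr17:13006846-13040063, plus strand) encodes the manganese enzyme of the mitochondrial matrix. It stood at 20.2, 18.8 and 20.8 FPKM in Angptl2+/+ and at 19.8, 20.8 and 21.5 FPKM in Angptl2-/-. These 6 values overlapped and had a coefficient of variation of 4.66%. The log2 difference was 0.05 (SE 0.09, 95% interval −0.17 to 0.28, adjusted p = 0.792 from limma). A correction of each library for GC content moved it to −0.18.

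Catalase and Gpx1 showed no difference beyond the spread, and Gpx4 was lower in each Angptl2-/- library without passing the test. Cat (ENSMUSG00000027187, chr2:103453849-103485160, minus strand) encodes catalase, the peroxisomal enzyme that splits hydrogen peroxide. It was at 24, 18 and 16.3 FPKM in Angptl2+/+ and 19.2, 18.2 and 19.7 FPKM in Angptl2-/-. The Angptl2-/- values fell inside the range of the controls, which was set by Angptl2+/+ replicate 1 at the top. The log2 difference was −0.01 (SE 0.15, 95% interval −0.37 to 0.35, adjusted p = 0.98 from limma). Without that library it was 0.15.

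Gpx1 and Gpx4 are selenoproteins, in which a UGA codon inside the reading frame is read as selenocysteine, the residue that reacts with peroxide. The codon and 24 bases on each side are shown, because they carry the catalytic site of both enzymes and because a near-identical copy of Gpx4 is transcribed. Capitals mark the selenocysteine codon, written TGA as in DNA. It is codon 47 of 201 in Gpx1-201 (exon 1, from chr9 position 108339451) and codon 73 of 197 in Gpx4-202 (exon 3, from chr10 position 80054737), and the matching TGA of the copy Gpx4-ps2 starts at chr10 position 45875468, all on the plus strand of GRCm38.
Gpx1: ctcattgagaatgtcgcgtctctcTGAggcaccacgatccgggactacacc
Gpx4: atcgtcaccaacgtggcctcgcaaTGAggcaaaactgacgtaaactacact
Gpx4-ps2: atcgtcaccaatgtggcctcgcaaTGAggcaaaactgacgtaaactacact
Over these 51 bases Gpx4 and Gpx4-ps2 share 50 and differ by C12T, with positions counted from 1 at the 5′ end and the base of Gpx4 first.

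Gpx1 (ENSMUSG00000063856, chr9:108338903-108340343, plus strand) encodes the glutathione peroxidase of the cytosol and mitochondria. It was at 38.7, 42.4 and 36.4 FPKM in Angptl2+/+ and 39.0, 39.3 and 42.9 FPKM in Angptl2-/-. The libraries overlapped, with a log2 difference of 0.05 (SE 0.10, 95% interval −0.19 to 0.28, adjusted p = 0.837 from limma). It was 0.29 once corrected for GC content.

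Gpx4 (ENSMUSG00000075706, chr10:80047166-80056439, plus strand) encodes the peroxidase that reduces lipid hydroperoxides in membranes and so holds back ferroptosis, a form of cell death by lipid oxidation. It was at 107, 103 and 112 FPKM in the controls. In Angptl2-/- it was at 90.5, 83.7 and 93.6 FPKM, and all of these lay below the lowest control. The ratio of 0.83 corresponds to a log2 difference of −0.27 (SE 0.10, 95% interval −0.49 to −0.05, adjusted p = 0.277 from limma). The direction rested on how GC content was treated. The longest Gpx4 transcript has 60.2% G and C, the highest share of the 10 genes, and after the GC correction the difference was 0.07, or 0.02 when the GC content of the principal transcript was used. The other 16 alternatives gave −0.30 to −0.19.

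Gpx4-ps2, a transcribed processed pseudogene, is 99.738% identical to Gpx4 over 762 bases, and reads of the 2 genes may have been split between them in a way the sources do not state. It was at 49.8, 41.9 and 45.2 FPKM in Angptl2+/+ and 39.6, 40.5 and 44.3 FPKM in Angptl2-/-, with fragments equal to 20.42% of those of Gpx4. Its log2 difference was −0.14 (SE 0.11, adjusted p = 0.522 from limma), and its libraries overlapped. Adding its fragments to those of Gpx4 gave 230.0, 213 and 215 CPM (fragments scaled by library depth alone) in Angptl2+/+ and 189.9, 172 and 188 CPM in Angptl2-/-. The log2 ratio of the group means was −0.26 for the sum and −0.28 for Gpx4 alone. Reads left out of both genes are not covered by this sum. Gpx4-ps2, like the other copies and neighbours named here, was chosen after its values were seen.

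Of the 3 peroxiredoxins, none of which passed the test, Prdx1 lay above the controls in each Angptl2-/- library, Prdx5 lay below them, and Prdx2 overlapped. Differences between the 3 genes were not tested. Prdx1 (ENSMUSG00000028691, chr4:116685544-116700822, plus strand) encodes a cytosolic peroxiredoxin that uses thioredoxin and belongs to the Nrf2 targets. It was at 35.5, 31.7 and 33.6 FPKM in Angptl2+/+ and at 36.1, 41.2 and 49.1 FPKM in Angptl2-/-. The lowest Angptl2-/- value lay just above the highest control. The ratio of 1.25 corresponds to a log2 difference of 0.32 (SE 0.13, 95% interval 0.01 to 0.62, adjusted p = 0.3 from limma). The difference was 0.20 without Angptl2-/- replicate 3, the highest library, and after the GC correction it was 0.08 (42.3% G and C in the longest transcript). Of 3 processed pseudogenes with at least 90% identity, Gm7204 and Gm15974 were at 0 and Gm21399 held 1.38% as many fragments as Prdx1.

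Prdx2 (ENSMUSG00000005161, chr8:84969587-84974834, plus strand) encodes the other abundant cytosolic peroxiredoxin, which is plentiful in neurons and red blood cells. It had 70.2, 70.2 and 65.0 FPKM in Angptl2+/+ and 70.5, 66.4 and 66.4 FPKM in Angptl2-/-. It was the steadiest of the 10 genes, with a coefficient of variation of 3.58% over the 6 libraries against a counting error of 1.74%. The log2 difference was −0.01 (SE 0.09, 95% interval −0.23 to 0.20, adjusted p = 0.951 from limma). The sign differed under 8 alternatives. The 3′ part of Prdx2 shares 173 exon bases with Junb on the opposite strand, and 177 exon bases are shared with Rnaseh2a. Junb, an immediate early gene, reached 43.5 FPKM in Angptl2+/+ replicate 3 against 13.7 to 21.1 FPKM elsewhere, while Prdx2 had its lowest value there. Whether strand was used in counting is not given in the sources used here, so reads of these overlaps cannot be assigned with certainty.

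Prdx5 (ENSMUSG00000024953, chr19:6906697-6910106, minus strand) encodes the peroxiredoxin found in mitochondria, peroxisomes and the cytosol. It was at 64.2, 63.2 and 53.3 FPKM in Angptl2+/+ and at 45.7, 42.0 and 45.9 FPKM in Angptl2-/-. All Angptl2-/- libraries lay below the lowest control. The ratio of 0.742 corresponds to a log2 difference of −0.43 (SE 0.11, 95% interval −0.69 to −0.17, adjusted p = 0.273 from limma), the smallest p of the 10 genes and rank 270 among the 14862 tested. The sign held under all 18 alternatives. The difference was −0.38 without Angptl2+/+ replicate 1, −0.21 once GC content was corrected (adjusted p = 0.72 from limma) and −0.16 with the GC content of the principal transcript. Prdx5 shares 409 exon bases with Trmt112, which lies on the other strand and encodes a cofactor of methyltransferases. Trmt112 was at 12.2, 11.1 and 7.64 FPKM against 9.60, 7.40 and 7.08 FPKM, from 199.2 fragments on average (1964.5 for Prdx5), with a log2 difference of −0.34 (SE 0.20, adjusted p = 0.417 from limma). Its libraries overlapped.

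Txn1 and Gsr, which feed electrons to the peroxidases, overlapped between genotypes. Txn1 (ENSMUSG00000028367, chr4:57943373-57956411, minus strand) encodes cytosolic thioredoxin. It was at 48.0, 54.2 and 36.9 FPKM in Angptl2+/+ and 47.0, 40.9 and 40.6 FPKM in Angptl2-/-, with the lowest and the highest value both among the controls. The log2 difference was −0.10 (SE 0.16, 95% interval −0.47 to 0.27, adjusted p = 0.764 from limma), and 0.02 without Angptl2+/+ replicate 2. Gsr (ENSMUSG00000031584, chr8:33652523-33698163, plus strand) encodes glutathione reductase. It was at 10.3, 10.2 and 11.7 FPKM in Angptl2+/+ and 11.4, 12.1 and 11.6 FPKM in Angptl2-/-, where the third control lay among the Angptl2-/- values. The log2 difference was 0.13 (SE 0.10, 95% interval −0.11 to 0.37, adjusted p = 0.531 from limma), and it stayed between 0.09 and 0.19 under all 18 alternatives.

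**Figure D2:**
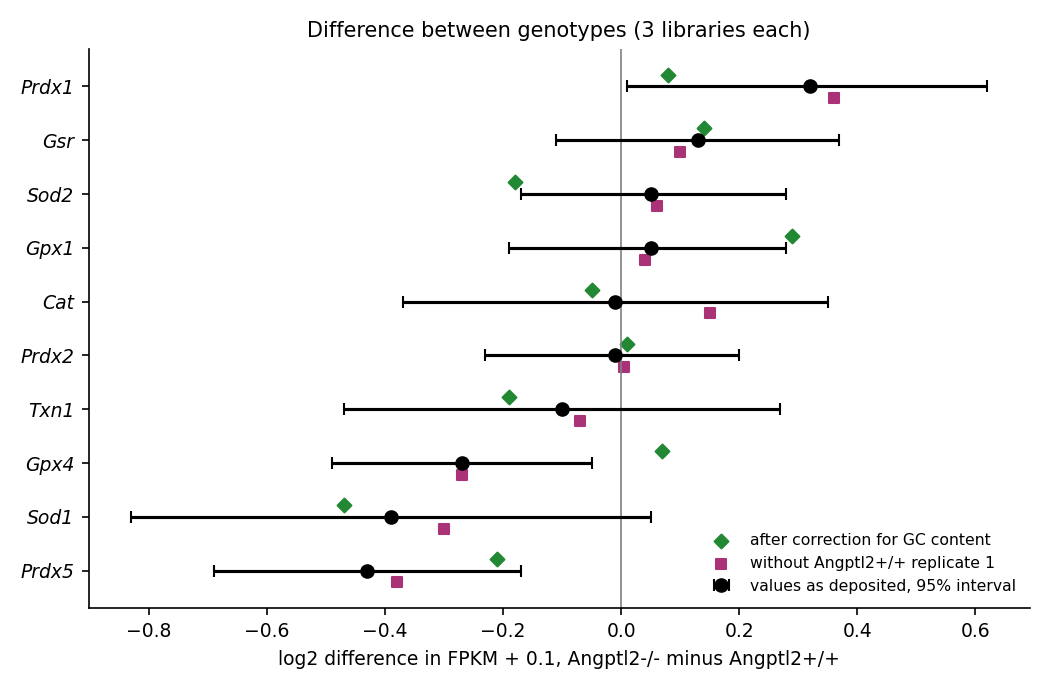
Log2 difference of each gene (horizontal axis, FPKM + 0.1, Angptl2-/- minus Angptl2+/+) with its 95% interval from limma in black, after correction for GC content in green and without Angptl2+/+ replicate 1 in purple (n = 3 per genotype, otherwise). The intervals of Prdx5, Gpx4 and Prdx1 lie off 0 before adjustment, and the GC correction moves Gpx4 from −0.27 to 0.07, Prdx1 from 0.32 to 0.08 and Prdx5 from −0.43 to −0.21.

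The intervals differed in width. In the values as deposited, for Sod2, Gpx1, Prdx2 and Gsr the 95% intervals stayed within −0.23 and 0.37 on the log2 scale, whereas those of Sod1, Cat and Txn1 reached down to −0.83, −0.37 and −0.47. The GC corrections moved values toward or past these limits, to 0.29 (SE 0.11, adjusted p = 0.7 from limma) for Gpx1 and to −0.20 (SE 0.08, adjusted p = 0.755 from limma) for Sod2 by principal transcript. Counting error was small for all members (1.73 to 4.48% in the library with the fewest fragments of each gene), beside coefficients of variation of 3.58 to 22.2% over the 6 libraries.

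Gpx4 was the most abundant of the 10 messages and Gsr the least. By FPKM over the 6 libraries the order was Gpx4 (mean 98.4), Prdx2 (68.1), Prdx5 (52.4), Txn1 (44.6), Gpx1 (39.8), Prdx1 (37.9), Sod1 (22.8), Sod2 (20.3), Cat (19.2) and Gsr (11.2). The ranges of neighbours did not overlap between Gpx4 and Prdx2, Prdx2 and Prdx5, Prdx1 and Sod1, or Cat and Gsr. From Prdx5 to Prdx1, and from Sod1 to Cat, each gene overlapped the next, so their order is not settled. Sod1 was above Sod2 in 3 of 6 libraries.

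The place of Sod1 depended on the length used. The deposited values divide by all annotated exon bases of a gene, 3970 for Sod1, because a retained-intron transcript is included, although the principal transcript has 641 bases (6.19 times fewer). Per kilobase of the principal transcript, with the same scaling by depth, Sod1 moved from place 7 to place 2 with a mean of 141, between Gpx4 (177) and Prdx2 (129). On this scale Sod1 was below Gpx4 in 6 of 6 libraries and above Prdx2 in 4 of 6. The ranges of these neighbours overlapped, from 98.9 to 180.3 for Sod1, 150.4 to 202 for Gpx4 and 123 to 133 for Prdx2. This scale credits all fragments to the principal transcript, so it is an upper value where other transcripts are present. The ratio of a gene between genotypes is the same with either length as divisor, which is apart from the length correction described below.

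**Figure D3:**
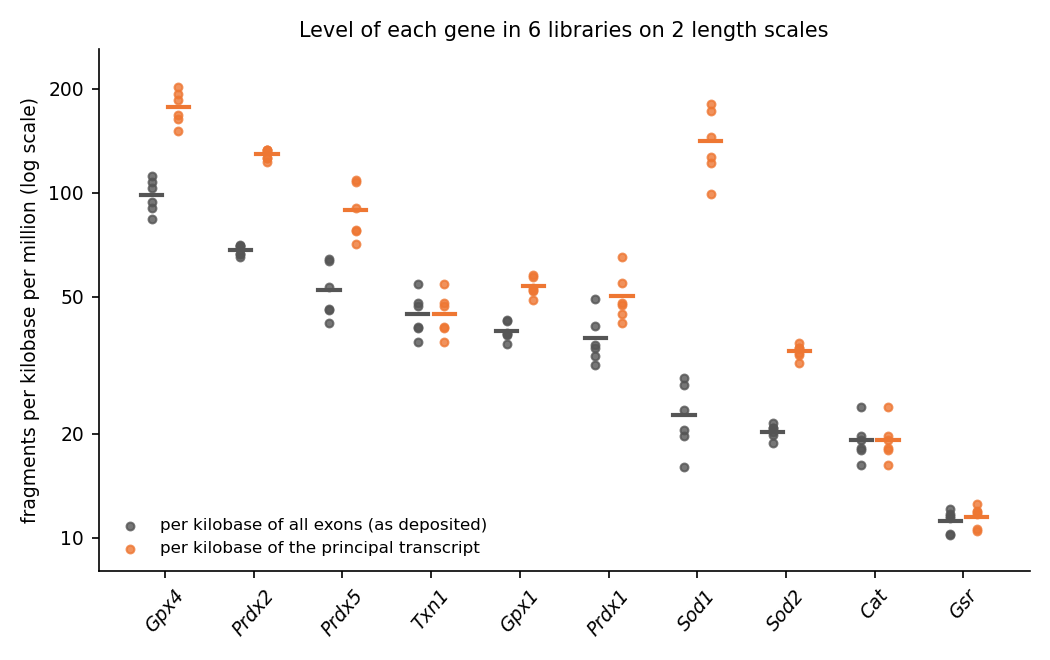
Level of the 10 genes in 6 libraries (points, with bars for means) per kilobase of all exons, as deposited (grey), or of the principal transcript (orange), scaled by library depth, on a log axis. Sod1 has a mean of 22.8 on the first scale and 141 on the second, while Cat stays at 19.2 on both.

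Nrf2 binds the antioxidant response element, whose core is TGACNNNGC. This core was looked for on both strands in the RefSeq promoters of GRCm38.p6, 250 bases before to 50 after each start (300 bases). Promoters were found for 9 of the 10 genes, 12 in all, Gsr being without an entry. The core was in 2 of the 12 (16.7%) and in 4071 of all 32851 promoters (12.4%), so its share among the members was near that of all promoters. The matches in Prdx1 (chr4:116685456-116685484, 133 bases before the start) and Sod1 (chr16:90220696-90220724, 56 bases before the start) are shown with 10 bases on each side, on the plus strand, the strand of both genes. Capitals mark the core, which reads GCNNNGTCA here because it lies on the minus strand.
Prdx1: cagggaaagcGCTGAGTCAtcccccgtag
Sod1: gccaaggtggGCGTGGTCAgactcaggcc
The 2 genes with a match had log2 differences of opposite sign (0.32 and −0.39). A match describes the letters only, and no binding was measured.

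The members did not move as 1 block across the libraries. Over the 6 libraries, whose depth and cell makeup all genes share, the Pearson correlation of log2 values was highest for Prdx2 with Txn1 (0.93), Gpx4 with Prdx5 (0.81) and Sod1 with Prdx5 (0.79). It was lowest for Prdx5 with Gsr (−0.92), Sod2 with Txn1 (−0.88), and Sod1 and Txn1 each with Gsr (both −0.84). Among 4595 other protein-coding genes with a mean of at least 10 FPKM, those most like Sod1 were Inafm1 (r = 0.996), Snrpd2, a core protein of the spliceosome (r = 0.994), and Pcbp4, an RNA-binding protein (r = 0.993). Inafm1 was at 17.5, 17.0 and 12.9 against 14.4, 11.7 and 10 FPKM, and like Sod1 its libraries overlapped. The log2 differences of these 3 genes were −0.39, −0.39 and −0.51. As the genes were picked for their likeness to Sod1 over the same libraries, the shared sign follows from the choice.

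**Figure D4:**
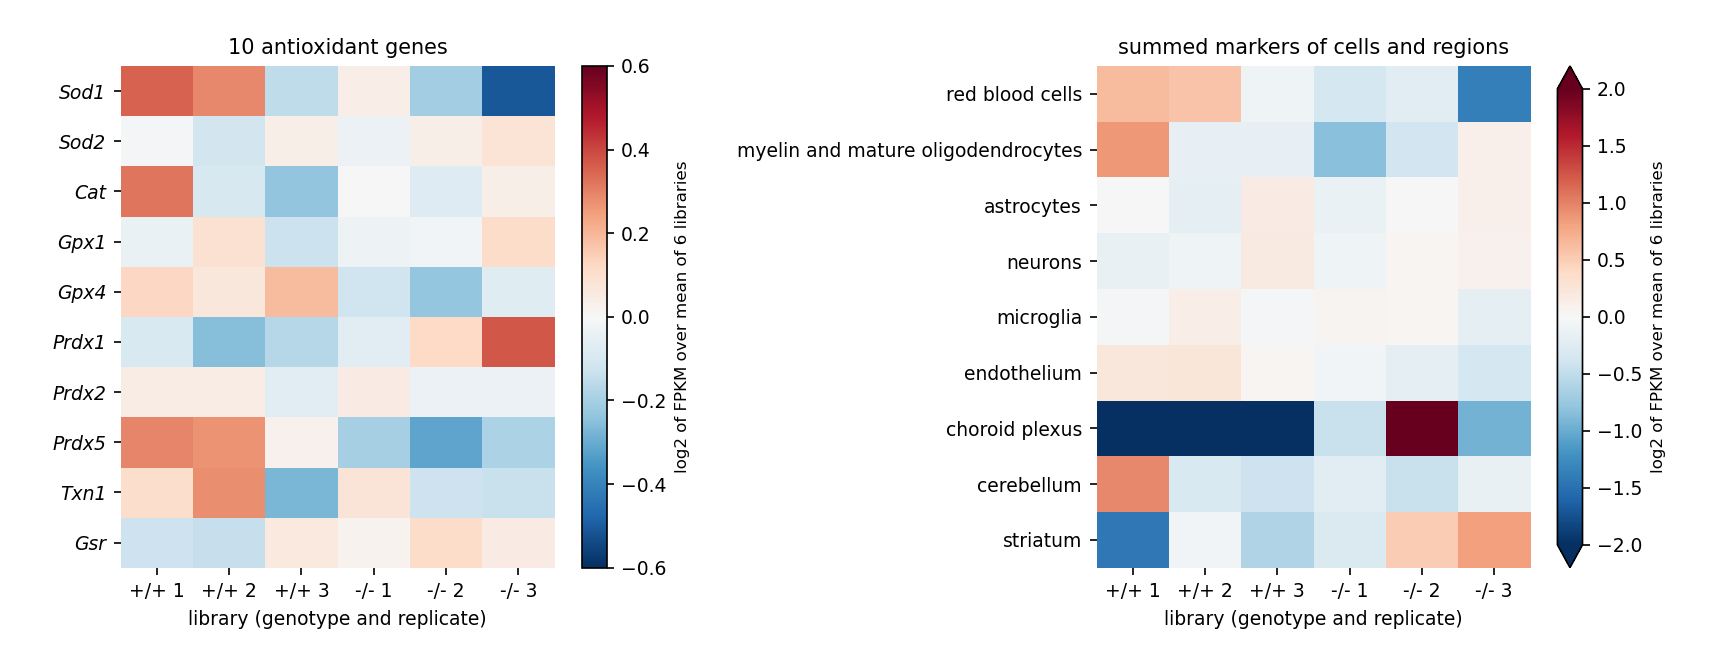
Log2 of the FPKM over the mean of the 6 libraries (colour) for each of the 10 genes on the left and for summed markers of cells and regions on the right, with libraries in columns. Sod1 runs from 29.1 FPKM in Angptl2+/+ replicate 1 to 16.0 FPKM in Angptl2-/- replicate 3, the libraries with the highest and lowest red blood cell sums (498 and 125 FPKM). Angptl2+/+ replicate 3 and Angptl2-/- replicate 1 take opposite orders in Sod1 (20.5 and 23.4 FPKM) and in that sum (302 and 251 FPKM). A link between them was not tested. The colour scale on the right is cut at its ends, which choroid plexus exceeds.

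Around the members, 66 further genes of the redox system were read from 10 lists, of which 56 were tested. None passed (0 in each direction at an adjusted p under 0.05 in limma). At an unadjusted p under 0.05 there was 1 higher gene and 3 lower ones, shares of the 56 below the 7.09% and 9.12% of all genes. Log2 differences were positive for 19 and negative for 37, with a median of −0.10 beside −0.004 over all genes, and the genotypes did not overlap for 7 higher and 6 lower of the 56, near the 10.7% and 11.8% of all genes.

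The glutathione S-transferases, which join glutathione to reactive compounds, shared a sign, and none passed the test. All 10 had negative log2 differences (−0.60 to −0.08, median −0.24), also under each other scaling and correction, but 4 were positive without Angptl2+/+ replicate 1 (median −0.12), 2 without Angptl2-/- replicate 2 (median −0.14) and 1 without Angptl2+/+ replicate 2 (median −0.20). Summed, they were at 328, 285 and 255 FPKM in Angptl2+/+ and 252, 232 and 230.4 FPKM in Angptl2-/-. The sums of the genotypes did not overlap. Mgst3, a microsomal transferase with peroxidase activity, was at 70.9, 70.2 and 67.4 FPKM against 55.0, 57.5 and 45.0 FPKM, with no overlap (log2 difference −0.41, SE 0.12, adjusted p = 0.273 from limma). Gstm5, the most abundant of them, overlapped (−0.15, SE 0.16).

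The superoxide dismutase list, with Sod3 and the copper chaperone Ccs, had 2 positive and 2 negative differences (median −0.09), and catalase with the glutathione peroxidases 2 and 4 (median −0.01, with Gpx2, Gpx5 and Gpx6 below the minimum). The latter split moved with single libraries, to 0 positive and 6 negative without Angptl2+/+ replicate 3 (median −0.22) and to 4 and 2 without Angptl2+/+ replicate 1 (median 0.10). Summed, this list was at 175 to 189 FPKM in Angptl2+/+ and 157 to 173 FPKM in Angptl2-/-, without overlap, and Gpx4 held most of the sum. The peroxiredoxins with sulfiredoxin had 2 positive and 5 negative (median −0.01), and Srxn1, the sulfiredoxin that repairs overoxidised peroxiredoxins, was at −0.07 (SE 0.10). Genotypes did not overlap for 2 higher genes and 1 lower gene of these. In the thioredoxin system 3 were positive and 3 negative (median −0.04). Txn2, the mitochondrial thioredoxin, was at 18.1, 19.6 and 18.4 FPKM against 17.0, 16.9 and 16.1 FPKM, apart but at an adjusted p of 0.394 (limma). Genes of glutathione synthesis and reduction had 6 positive and 3 negative differences (median 0.10), which turned to 2 and 7 after the GC correction (median −0.11). In this list Gss, glutathione synthetase, was at 2.55, 1.94 and 2.09 against 1.64, 1.83 and 1.83 FPKM, and Gclc, the catalytic subunit of the preceding step, had a log2 difference of 0.15 (SE 0.13). The genotypes did not overlap for 2 higher genes of this list and 1 lower gene, which was Gss.

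Among 12 tested regulators and targets of Nrf2, 6 were positive and 6 negative (median −0.02). Bach1, a repressor that competes with Nrf2 for its sites, was at 2.92, 3.42 and 3.13 FPKM in Angptl2+/+ and 4.31, 3.84 and 4.13 FPKM in Angptl2-/-. Its groups were apart (log2 difference 0.37, SE 0.12, adjusted p = 0.274 from limma). Keap1, which marks Nrf2 for degradation, was apart in the other direction (−0.31, SE 0.11, adjusted p = 0.278 from limma). Of 8 tested NADPH suppliers 2 were positive and 6 negative (median −0.16, and 0.04 after the GC correction by principal transcript). Pgls, of the pentose phosphate pathway, was at 6.45, 7.48 and 6.87 FPKM against 5.81, 4.93 and 5.70 FPKM (log2 difference −0.34, SE 0.12, adjusted p = 0.277 from limma). Taldo1, of the same pathway, overlapped (−0.25, SE 0.16). Idh1 and Me1, which make NADPH in the cytosol, were apart and higher in Angptl2-/- (0.27, SE 0.14, and 0.25, SE 0.11, adjusted p = 0.366 and 0.325 from limma). Keap1, Idh1 and Me1 were chosen after their values were seen. Selenoprotein synthesis, on which Gpx1 and Gpx4 depend, had 3 positive and 3 negative differences (median −0.02). In this list 1 gene was apart and higher in Angptl2-/- and 1 was apart and lower. Sepsecs, which makes the selenocysteine tRNA, was at 2.03, 1.91 and 2.08 FPKM against 2.29, 2.43 and 2.66 FPKM, apart and higher (0.28, SE 0.13, adjusted p = 0.347 from limma). Eefsec, of the same list and also chosen after its values were seen, had a negative difference (−0.23, SE 0.12, adjusted p = 0.366 from limma). Selenop, which carries selenium, overlapped (0.07, SE 0.14). Only 3 of 8 NADPH oxidase genes reached the minimum, 1 positive and 2 negative (median −0.16), with Cyba at −0.20 (SE 0.23).

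**Figure D5:**
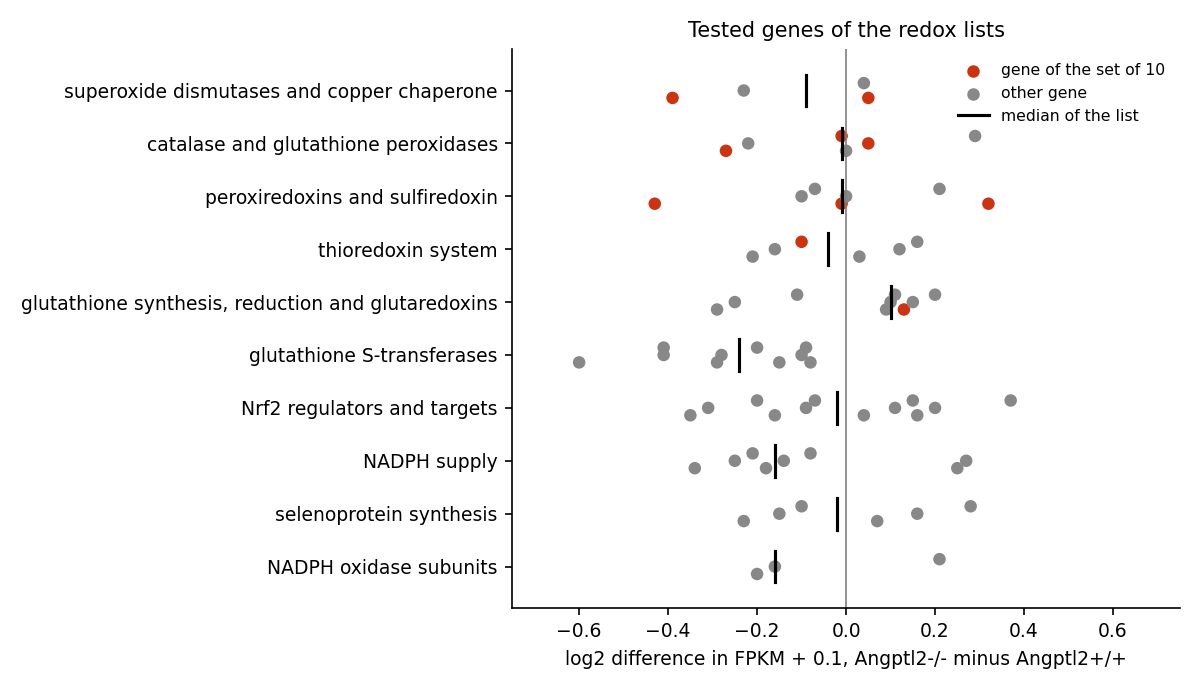
Log2 difference (horizontal axis, Angptl2-/- minus Angptl2+/+) of each tested gene in the 10 redox lists, with the set of 10 in red, other genes in grey and the median of each list as a black bar. The glutathione S-transferases lie between −0.60 and −0.08, and the other lists hold genes on both sides of 0.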

How the data were processed

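Paired-end reads of 150 bases (Illumina HiSeq) of 6 brain RNA libraries were turned by the authors into a deposited table of FPKM, fragments per kilobase of exon scaled by library depth. Their processing notes name Bowtie 0.12.2 and mm8, while the IDs and lengths match GENCODE M21 (GRCm38), which holds 54495 of 54532 IDs. Counting tool, strand setting, filters: not given in the sources used here. FPKM times summed exon length gave whole fragments (tolerance 0.05) for 96.64 to 96.77% of values above 0. These fragments give counting error only.

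limma 3.58.1 (R 4.3.3) was run on log2(FPKM + 0.1) with moderation and an intensity trend, two-sided, with a minimum mean of 0.5 FPKM. The 3 replicates per genotype were separate columns, and no pooled column was used. On this scale the change of low genes is understated. GC and length corrections were loess fits per library (span 0.3), and voom was run on the recovered fragments. The code was tested on simulated data with less spread than these libraries and with planted changes larger than the differences of the members. How often changes like these are found at the spread of these libraries was not tested. Copies were searched among annotated transcripts with BLAST 2.17.0 (at least 90% identity over 300 bases). Promoters are RefSeq's, other sequences GENCODE M21's, and primers the study's. Figures used Python 3.11.15 and matplotlib 3.10.9.

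Named genes are the 10 members, Angptl2, the most abundant gene and the one of smallest p in each redox list, the most abundant gene of each marker list (2 of these are not reported here), and the 3 genes most like Sod1. The members and lists were chosen with earlier results of these data known. Alternatives were pseudocounts of 1 and 0.01, no filter, a mean FPKM of at least 1, 3 other scalings, GC and length corrections, voom, a replicate block, and leaving out each library. The GC content of the principal transcript was added after the data were seen.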

Additional observations from a re-analysis of the deposited data

How the results depend on the processing

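Members called stayed at 0 in each direction under all 18 alternatives with an adjusted p, and 1 was higher (Prdx1) and 2 lower (Prdx5, Gpx4) at an unadjusted p. Of 18 alternatives this unadjusted p held in 16 for Prdx5 and 10 each for Gpx4 and Prdx1, and it was reached in 3 for Sod1, 2 for Gpx1 and 1 for Sod2. After the GC correction Prdx5, Gpx4 and Prdx1 did not hold it (unadjusted values 0.0699 for Prdx5, 0.607 for Gpx4 and 0.378 for Prdx1, limma). The alternatives in which Gpx1 reached it were the GC corrections (unadjusted values 0.0297, and 0.0311 by principal transcript, limma). Sod2 reached it with the GC correction by principal transcript (0.042, limma). Over all genes, 1 was called higher after the length correction (Mir7663) and 1 with the replicate block (Ttr), while 1054 higher and 1355 lower passed an unadjusted p. Without 1 library the calls lower ranged from 0 to 1, which was Gapdh without Angptl2+/+ replicate 1 (smallest adjusted p = 0.00124, limma). Unadjusted calls numbered 481 higher with 790 lower when Angptl2-/- replicate 2 was left out, 465 with 835 for Angptl2-/- replicate 3, 599 with 1000 for Angptl2+/+ replicate 1 and 676 with 881 for Angptl2+/+ replicate 2. They rose to 1373 with 1606 without Angptl2+/+ replicate 3 and to 1370 with 1656 without Angptl2-/- replicate 1. The GC correction left 409 with 640 (395 with 570 by principal transcript). Log2 differences that changed sign were those of Sod2 (−0.18 after the GC correction, −0.20 by principal transcript, −0.06 after the length correction), Gpx4 (0.07 and 0.02 after the same 2 GC corrections), Cat (0.03 with quantile normalization, 0.05 rescaled without mitochondrial and haemoglobin genes, 0.05 after the length correction), Prdx2 (0.06, 0.05 and 0.02 in the same order, and 0.01 after the GC correction) and Txn1 (0.01 after the length correction). Leaving out 1 library gave −0.13 to 0.15 for Cat, −0.005 to 0.11 for Gpx1, −0.05 to 0.004 for Prdx2 and −0.26 to 0.02 for Txn1. The cause was not tested. Whether the replicate numbers pair the libraries is not stated in the sources used here. Correlations of deviations were 0.037, −0.069 and 0.162 for numbers 1, 2 and 3, which with 3 libraries per genotype cannot settle it. With the number as a block, Sod1 stayed at −0.39 (unadjusted p = 0.0105, adjusted p = 0.225, limma), and no member was called. The Angptl2 difference ran from −1.61 to −0.89 without 1 library, and was −0.42 and −1.54 with pseudocounts of 1 and 0.01 (exact permutation p = 0.2 for both).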

Other observations

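Nnt, which encodes the mitochondrial transhydrogenase that makes NADPH for glutathione reductase and thioredoxin reductase, was nearly unread in both genotypes. Its 2 overlapping gene IDs were at 0 to 0.0741 FPKM (ENSMUSG00000025453, chr13:119335448-119408997) and at 0 in all 6 libraries (ENSMUSG00000116207, chr13:119335528-119408952). How reads in both were counted is not stated in the sources used here, so the level of Nnt is uncertain. Nnt was chosen after its values were seen.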
